A study of Mus musculus with 3 samples.

Results

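The genes of axon guidance ligands and receptors were examined in a 5-hydroxymethylcytosine (5hmC) profile of Sv129 mouse embryonic stem cells (mESCs). TET enzymes make 5hmC by oxidising methylated cytosine in DNA. Members were chosen by gene symbol from the deposited whole-genome tables of regions whose 5hmC signal differed between both cultures. They were the semaphorins (Sema), plexins (Plxn), neuropilins (Nrp), ephrins (Efn), Eph receptors (Eph), Slits, Robos, netrins (Ntn), netrin-Gs (Ntng), Unc5 genes, Dcc, Neo1 and the Rgm genes. A total of 185 listed regions of 51 such genes were found, of 20227 pairs of a region and a gene, which cover 19817 regions and 9293 genes. The annotation holds 76 protein-coding genes that match these names, and 25 of them had no listed region. A listed region was thus found for 67.1% of these genes, against 35.7% of 21900 annotated protein-coding genes. For genes longer than 50 kb the shares were 86.8% of 38 member genes, against 60.1% of all such genes. Unc50 and Unc5cl share the Unc5 letters but are not netrin receptors, and their 3 regions are described apart.

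Sv129 mESCs were cultured with 0 mg/L folate (FA0) or with 4 mg/L folate (FA4), both in serum-supplemented medium, and the labels name no genetic change in either culture. DNA was captured with an antibody kit for 5hmC and sequenced (hMeDIP-seq), with 1 captured library per condition from 1 cell line. No difference given here therefore has a replicate check, and tests on reads set 1 library against the other rather than the conditions. An input library of FA0 cells was not used here, and the tables hold no transcript level by which the labelled cell type could be checked.

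Growing axons read guidance cues through cell surface receptors. Semaphorins act through plexins, the secreted class with the help of neuropilins. Ephrins on 1 cell bind Eph receptors on the next and signal into both cells. Slits bind Robos and turn axons away, and netrins attract through Dcc and neogenin or repel through Unc5 receptors. The same families guide cell movement, boundary formation and vessel growth in embryos. In embryonic stem cells 5hmC is found at enhancers, in gene bodies and near start sites.

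Each listed region carries a normalised read count per library, from which whole reads were recovered. Values are given in reads, and 1 read stands for 1.15 normalised counts in FA0 and 0.866 in FA4, so that 1.33 FA4 reads weigh as much as 1 FA0 read. Fold differences are ratios of normalised counts, always the higher over the lower library, with a 95% interval for counting error only, as PCR copies of a molecule are not independent. Where 1 library held 0 reads the fold was taken against a floor of 3 reads and is written as at least that value, which is not a confidence limit. The rule by which regions were listed is not given in the sources used here. All listed values passed a p-value of 0.0001 in a rebuilt G-test and a fold of 2, stricter than the thresholds in the study's methods, so all folds are of selected regions. As a second measure each region was put through an exact two-sided binomial test at the same p-value, with 42.9% of reads expected in FA0.

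Of the 185 regions, 54 had the higher 5hmC signal in FA0 and 131 had it in FA4. The FA0-higher share was 29.2% (95% interval 22.8 to 36.3), against 39% of all listed pairs (38.3 to 39.7), and the FA4-higher share was 70.8%, against 61% of all listed pairs. By gene the split was even, with 17 genes that had FA0-higher regions alone, 17 with both and 17 with FA4-higher regions alone. Of all 9293 listed genes 3249 had FA0-higher regions alone, 2259 had both and 3785 had FA4-higher regions alone. The members as listed leaned more to FA4 than the tables as a whole when counted by region. Counted by gene they did not, with 17 genes each way against 3249 and 3785. Regions of 1 gene are not independent counts, and the interval above treats them as if they were. The 17 genes with regions of both directions held 121 of the 185 regions, against 9351 of 20227 pairs for all such listed genes.

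Reads per region were few. The FA0-higher regions held a median of 15 FA0 reads (10 to 42), and 21 of 54 (38.9%) had 0 FA4 reads. The FA4-higher regions held a median of 14 FA4 reads (13 to 32), and 113 of 131 (86.3%) had 0 FA0 reads. Regions with 0 FA4 reads made up 11.4% of the members, against 12.6% of all listed pairs, and regions with 0 FA0 reads made up 61.1% of the members, against 49.3% of all listed pairs. Within each direction of all listed pairs, 32.3% of FA0-higher and 80.8% of FA4-higher pairs had 0 reads in the other library. Over all their regions the members held 978 FA0 and 158 FA4 reads in the FA0-higher regions, and 28 FA0 and 2111 FA4 reads in the FA4-higher regions. The FA4-higher regions were thus mostly stretches with 13 or more reads in FA4 and none in FA0.

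**Figure D1:**
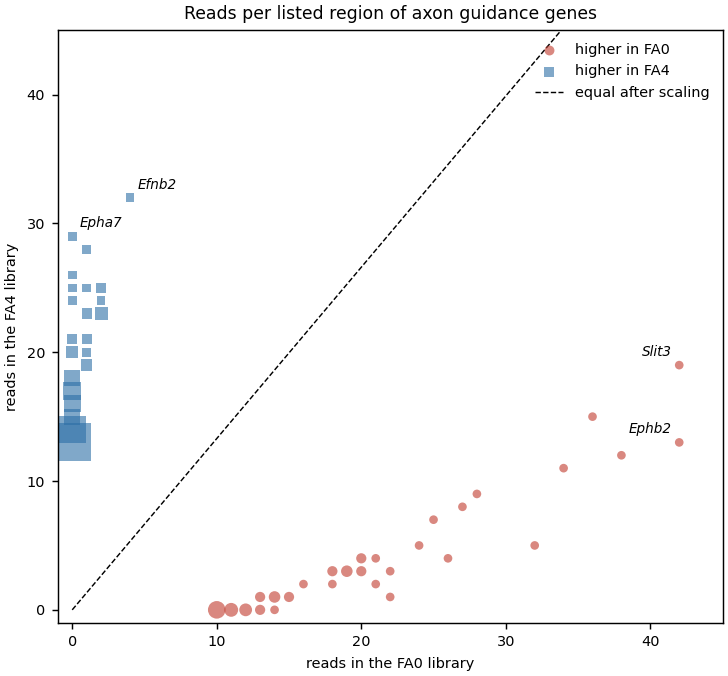
Reads in the FA0 library (horizontal axis) and the FA4 library (vertical axis) for each of the 185 listed regions, with circles for FA0-higher and squares for FA4-higher regions, symbol area growing with the number of regions at a point, and a dashed line where both normalised counts are equal. Of the 131 FA4-higher regions 113 lie at 0 FA0 reads, while FA0-higher regions reach 42 FA0 reads with 13 or 19 FA4 reads in Ephb2 and Slit3.

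The exact test was passed by 42 of the 54 FA0-higher regions (77.8%) and by 31 of the 131 FA4-higher regions (23.7%). Of the members 22.7% passed as FA0-higher, against 29.2% of all listed pairs, and 16.8% passed as FA4-higher, against 16%. Against 0 reads in the other library a region needed 11 FA0 reads or 17 FA4 reads to pass, while 10 FA0 reads or 13 FA4 reads were enough to be listed. Of the 113 FA4-higher regions with 0 FA0 reads 87 held fewer than 17 reads, and 48 of them held 13. Over all listed pairs 7786 of 9965 such pairs held fewer than 17 reads, and 3265 held 13. Among regions that passed, 57.5% were FA0-higher, against 64.6% of all listed pairs that passed. The balance of directions therefore turned with the call rule, while under both rules the members had a lower FA0-higher share than all listed pairs. No interval was computed for the share of 57.5%, which rests on 42 and 31 regions.

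**Figure D2:**
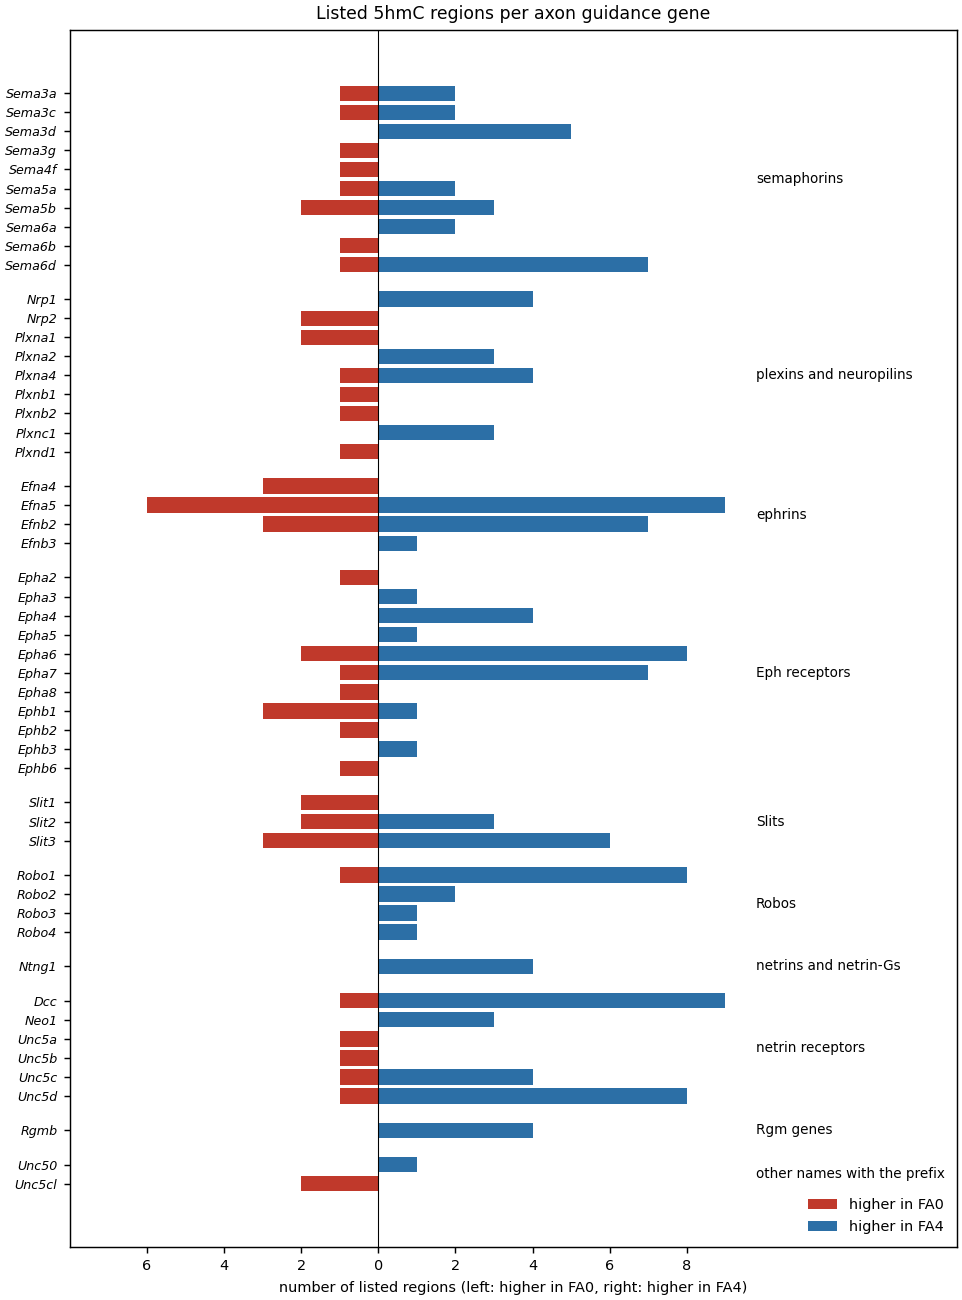
Number of listed regions per gene, drawn to the left for FA0-higher and to the right for FA4-higher regions, for the 51 genes ordered by family. Efna5 has the most regions (6 FA0-higher and 9 FA4-higher), and Efna4, Nrp2, Plxna1 and Slit1 have FA0-higher regions alone.

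Of the 185 regions 4 were classed as promoter regions (2.16%, against 5.28% of all listed pairs), in Efna4, Sema3c, Robo3 and Unc50. The 250 bases before the start site of the first 3 genes are printed here because these are the guidance genes with a listed region classed as promoter. The sequences are those of RefSeq on GRCm38.p6, the assembly also called mm10, written 5′ to 3′ along the gene, with each CG, the dinucleotide in which most methylated and hydroxymethylated cytosine lies, in capitals. None of these windows overlaps the listed region of its gene, which lay 1223 bases further upstream for Efna4, 746 bases further upstream for Sema3c and 516 bases downstream for Robo3.
Efna4: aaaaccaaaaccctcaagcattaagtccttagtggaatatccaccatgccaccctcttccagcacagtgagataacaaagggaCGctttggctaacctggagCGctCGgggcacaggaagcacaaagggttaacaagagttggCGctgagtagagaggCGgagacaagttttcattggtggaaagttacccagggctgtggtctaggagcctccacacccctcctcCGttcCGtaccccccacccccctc
Sema3c: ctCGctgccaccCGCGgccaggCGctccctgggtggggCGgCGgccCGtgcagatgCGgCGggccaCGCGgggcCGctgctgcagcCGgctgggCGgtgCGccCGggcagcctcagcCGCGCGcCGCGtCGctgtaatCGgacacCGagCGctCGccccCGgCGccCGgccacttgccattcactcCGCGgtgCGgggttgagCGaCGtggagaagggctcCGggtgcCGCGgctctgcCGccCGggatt
Robo3: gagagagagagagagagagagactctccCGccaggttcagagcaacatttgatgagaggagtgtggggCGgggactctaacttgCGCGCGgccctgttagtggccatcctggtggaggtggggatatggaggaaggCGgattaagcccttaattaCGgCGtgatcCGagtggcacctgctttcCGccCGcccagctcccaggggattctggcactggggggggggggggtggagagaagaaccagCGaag

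The 3 windows lay at chr3:89338029-89338278 on the minus strand (Efna4), chr5:17574566-17574815 on the plus strand (Sema3c) and chr9:37433176-37433425 on the minus strand (Robo3). The motif searched was CG, which reads the same on both strands. Efna4 had 7 matches, Sema3c 39 and Robo3 12, against a median of 6 in 32851 promoter windows of the same length. At least 1 match was found in 92.1% of those windows, at least 7 in 46.3%, at least 12 in 33.5% and at least 39 in 1.56%. The Sema3c window was thus among the windows with most CG letters, the Robo3 window was above the median and the Efna4 window was close to it.

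Efna4 encodes ephrin-A4, a ligand held to the membrane by a lipid anchor. Its promoter region (chr3:89339501-89340080, 1.76 kb before the start site) held 21 reads in FA0 and 2 in FA4, which was 14-fold higher in FA0 (3.42 to 123, exact p = 1.66e-06). It was the only promoter region of the members that was higher in FA0 and the only one that passed the exact test. Sema3c encodes a secreted semaphorin that steers axons and neural crest cells. Its promoter region (chr5:17572501-17573820, 1.66 kb before the start site) held 0 reads in FA0 and 13 in FA4, at least 3.25-fold higher in FA4 (exact p = 0.000994, not passed). Robo3 encodes the Robo receptor that lets commissural axons cross the midline. Its promoter region (chr9:37432101-37432660, 0.795 kb past the start site) also held 0 reads in FA0 and 13 in FA4 and did not pass the exact test. With 1 of 4 promoter regions FA0-higher the interval of the members' share was 0.631 to 80.6%, which holds the 61.6% of all 1067 listed promoter pairs.

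Among the ephrins, 4 of 8 genes had listed regions, with 12 FA0-higher and 17 FA4-higher regions, of which 9 and 3 passed the exact test. The ephrin-A genes had 9 of each direction, and the ephrin-B genes, which encode transmembrane ligands, had 3 FA0-higher and 8 FA4-higher regions. Efna4 had 2 more regions, at and beyond the end of the 4.64 kb gene. They held 13 reads in FA0 and 0 in FA4, and 18 reads in FA0 and 3 in FA4. All 3 Efna4 regions, with gaps of 1.32 and 5.96 kb between them, were FA0-higher and passed the exact test, and together they held 52 FA0 reads and 5 FA4 reads.

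Efna5, which encodes the ephrin-A5 of the retinotectal map, had 15 regions, more than any other member. They lay from 143 kb before to 1677 kb past its start site. Its FA0-higher regions numbered 6 and its FA4-higher regions 9, with 82 FA0 and 135 FA4 reads over all of them. The strongest FA0-higher region lay in an intron (chr17:62783161-62784540, 97.5 kb past the start site) and held 22 reads in FA0 and 3 in FA4, 9.78-fold higher in FA0 (2.94 to 51, exact p = 4.64e-06). The strongest FA4-higher regions, 1124 and 1501 kb past the start site, each held 0 reads in FA0 and 17 in FA4, at least 4.25-fold higher in FA4 (exact p = 8.7e-05). Regions of both directions alternated along the gene and the long stretch behind it, and 5 of the 6 regions more than 1000 kb away were FA4-higher.

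Efnb2 encodes ephrin-B2, a ligand of arterial endothelium, neural crest and forebrain. It had 3 FA0-higher and 7 FA4-higher regions. An intronic region (chr8:8651481-8652140, 8.96 kb past the start site) held 24 reads in FA0 and 5 in FA4, 6.4-fold higher in FA0 (2.39 to 21.5, exact p = 1.45e-05). A second intronic region 36.4 kb past the start site (chr8:8623741-8624920) went the other way, with 4 reads in FA0 and 32 in FA4, 6-fold higher in FA4 (2.13 to 23.4, exact p = 6.06e-05). That region had the highest FA4 read number of all members. The FA0-higher regions all lay within 104 kb of the start site, and the other 6 FA4-higher regions lay 274 to 1234 kb past it. Efnb3 had 1 FA4-higher region with 0 reads in FA0 and 13 in FA4.

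Eph receptors are receptor tyrosine kinases that sort axons and cells into territories. Of 14 genes 11 had listed regions, 10 of them FA0-higher and 23 FA4-higher, of which 10 and 7 passed the exact test. The EphA genes had 5 FA0-higher and 21 FA4-higher regions in 7 genes, and the EphB genes had 5 FA0-higher and 2 FA4-higher regions in 4 genes. The FA0-higher share was 19.2% (6.55 to 39.4) in EphA genes and 71.4% (29 to 96.3) in EphB genes. These intervals overlap, and regions of 1 gene share their surroundings, so they are not independent counts.

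Epha7 and Epha6 carried most of the EphA regions. Epha7, a receptor of the developing forebrain, had 1 FA0-higher and 7 FA4-higher regions, from 777 kb before to 604 kb past its start site and none of them within the 154 kb gene. Its strongest region (chr4:28770561-28772680, 41.5 kb before the start site) held 0 reads in FA0 and 29 in FA4, at least 7.25-fold higher in FA4 (exact p = 1.06e-07). A region 604 kb past the start site held 0 reads in FA0 and 25 in FA4, at least 6.25-fold higher in FA4 (exact p = 1.2e-06), and a neighbour 2.72 kb away held 0 reads in FA0 and 14 in FA4. The single FA0-higher Epha7 region held 11 reads in FA0 and 0 in FA4, and passed the exact test (p = 8.96e-05). The Epha7 surroundings before the gene thus held FA4-higher regions alone.

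Epha6, one of the longest receptor genes at 952 kb, had 2 FA0-higher and 8 FA4-higher regions between 762 kb before and 930 kb past its start site. Its strongest FA4-higher region was intronic (chr16:59833401-59835840) and held 1 read in FA0 and 23 in FA4, 17.2-fold higher in FA4 (2.8 to 711, exact p = 3.58e-05). Its strongest FA0-higher region lay 610 kb before the start site, with 12 reads in FA0 and 0 in FA4 (exact p = 3.84e-05). Epha4, a receptor that keeps corticospinal axons to their side, had 4 FA4-higher regions with 53 FA4 reads and 0 FA0 reads in all, none of which passed the exact test. Epha3 and Epha5 each had 1 FA4-higher region with 0 reads in FA0 and 13 in FA4. Epha2, a receptor that epithelial and embryonic stem cells also use, had 27 reads in FA0 and 8 in FA4 at 8.2 kb before its start site (exact p = 4.88e-05). Epha8 had 20 reads in FA0 and 4 in FA4 in an intron (exact p = 8.53e-05). The EphA genes with FA0-higher regions alone were those of 28.2 kb or less, and those with FA4-higher regions were of 148 kb or more. The EphB genes were mixed. Ephb2 (188 kb) and Ephb6 (15 kb) had FA0-higher regions alone, Ephb3 (18.5 kb) had an FA4-higher region alone, and Ephb1 (433 kb) had both.

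Ephb1, a receptor that turns retinal axons at the optic chiasm, had 3 FA0-higher regions within the gene and 1 FA4-higher region before it. The exonic region (chr9:101935561-101936860, 418 kb past the start site) held 22 reads in FA0 and 1 in FA4, 29.3-fold higher in FA0 (4.74 to 1211, exact p = 1.09e-07). This was the highest ratio among members with reads in both libraries. The intronic regions held 19 reads in FA0 and 3 in FA4, and 18 reads in FA0 and 3 in FA4. Ephb2, its close relative, had an intronic region (chr4:136730281-136731580) with 42 reads in FA0 and 13 in FA4, 4.31-fold higher in FA0 (2.27 to 8.75, exact p = 7.15e-07). Ephb6, a receptor without kinase activity, had an exonic region (chr6:41613101-41613620) with 12 reads in FA0 and 0 in FA4, at least 5.33-fold higher in FA0 (exact p = 3.84e-05). Ephb3 stood against these with 0 reads in FA0 and 21 in FA4 at 23.9 kb before its start site, at least 5.25-fold higher in FA4 (exact p = 1.54e-05). All 5 FA0-higher EphB regions lay inside their genes, and both FA4-higher ones lay outside. Among all members 61.1% of the regions with more signal in FA0 lay inside the gene span. For those with more signal in FA4 it was 44.3%. Over all listed pairs these shares were 42.5% and 31.3%. Ephb1 alone gave 4 of the 7 EphB regions, and the split was not tested.

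Semaphorins had listed regions in 10 of 20 genes, with 9 FA0-higher and 23 FA4-higher regions, of which 6 and 5 passed the exact test. The secreted Sema3 genes had 3 FA0-higher and 9 FA4-higher regions in 4 of 7 genes. The transmembrane Sema6 genes had 2 FA0-higher and 9 FA4-higher regions in 3 of 4 genes. The Sema5 genes, whose products carry thrombospondin repeats, had 3 FA0-higher and 5 FA4-higher regions. The Sema4 genes had 1 region in 1 of 6 genes, in Sema4f. The semaphorin genes without a region were Sema3b, Sema3e, Sema3f, Sema4a, Sema4b, Sema4c, Sema4d, Sema4g, Sema6c and Sema7a.

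The strongest FA0-higher semaphorin region belonged to Sema3g, a secreted semaphorin. It lay 15.5 kb past the start site (chr14:31232901-31233840) and held 32 reads in FA0 and 5 in FA4, 8.53-fold higher in FA0 (3.3 to 28.1, exact p = 7.94e-08). It was the FA0-higher region with the smallest exact p among all members. Sema4f had an exonic region (chr6:82912381-82913400) with 25 reads in FA0 and 7 in FA4, 4.76-fold higher in FA0 (2 to 13, exact p = 9.25e-05). Sema5b had an exonic region (chr16:35650821-35651580) with 14 reads in FA0 and 1 in FA4, 18.7-fold higher in FA0 (2.84 to 789, exact p = 6.35e-05). All Sema5b regions lay between 14.4 kb before and 109.8 kb past the start site, and the other 4 split into 1 FA0-higher and 3 FA4-higher, none of which passed the exact test.

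Sema6d, a transmembrane semaphorin of heart and nervous system, had 1 FA0-higher and 7 FA4-higher regions, from 249 kb before to 641 kb past the start of its longest transcript, of which 4 FA4-higher ones lay inside the 578 kb gene. An intronic region (chr2:124270081-124271540) held 0 reads in FA0 and 26 in FA4, at least 6.5-fold higher in FA4 (exact p = 6.46e-07). A second intronic region (chr2:124457201-124459060) held 0 reads in FA0 and 20 in FA4, at least 5-fold higher in FA4 (exact p = 1.5e-05). Both were FA4 regions without a single FA0 read. Upstream of the gene, at chr2:123878061-123879180, the FA0-higher region held 15 reads in FA0 and 1 in FA4, 20-fold higher in FA0 (3.08 to 842, exact p = 2.89e-05). The next listed region began 2980 bp further on and held 0 reads in FA0 and 13 in FA4, so that opposite directions stood side by side.

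Sema3d, a secreted semaphorin of cardiac neural crest and vessels, had 5 regions from 57.4 kb before to 451 kb past its start site, all FA4-higher, with 70 FA4 reads and 0 FA0 reads in all. None lay inside the gene, and the region 306 kb past the start site, with 17 FA4 reads, alone passed the exact test (p = 8.7e-05). Sema3a, the classical collapsing factor of growth cones, had 1 FA0-higher region with 14 reads in FA0 and 1 in FA4 (exact p = 6.35e-05). Its 2 FA4-higher regions held 0 reads in FA0 and 13 in FA4, and 1 read in FA0 and 19 in FA4, and did not pass. Sema6a had 2 FA4-higher regions with 0 FA0 reads and 33 FA4 reads in all.

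Plexins and neuropilins, the semaphorin receptors, had listed regions in 9 of 11 genes, with 8 FA0-higher and 14 FA4-higher regions, of which 6 and 3 passed the exact test. Plxna1 had 2 FA0-higher introns. The stronger (chr6:89327541-89329040) held 38 reads in FA0 and 12 in FA4, 4.22-fold higher in FA0 (2.16 to 8.88, exact p = 2.38e-06), and the weaker held 11 reads in FA0 and 0 in FA4. Plxnd1, a receptor for Sema3e on vessels and axons, had a region 2.42 kb before its start site (chr6:115996501-115998340) with 34 reads in FA0 and 11 in FA4, 4.12-fold higher in FA0 (2.04 to 9.02, exact p = 1.26e-05). Plxnb1 and Plxnb2 each had 1 intronic FA0-higher region, with 13 reads in FA0 and 0 in FA4, and with 13 reads in FA0 and 1 in FA4. The plexin genes with FA0-higher regions alone were thus Plxna1, Plxnb1, Plxnb2 and Plxnd1, none longer than 46.3 kb.

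The longer plexin genes went the other way. Plxna4, a gene of 444 kb, had 1 FA0-higher and 4 FA4-higher regions from 155 kb before to 304 kb past its start site, none of which passed the exact test, the strongest FA4-higher one at 1 read in FA0 and 19 in FA4 (14.2-fold, 2.27 to 592, exact p = 0.000355). Plxna2 had 3 FA4-higher regions with 44 FA4 reads and 0 FA0 reads in all, of which 1 passed the exact test. Plxnc1, the receptor for Sema7a, likewise had 3 FA4-higher regions with 44 FA4 reads and 0 FA0 reads in all, none of which passed.

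The 2 neuropilins, co-receptors of secreted semaphorins and of VEGF, had opposite directions. Nrp1 had 4 FA4-higher regions with 67 FA4 reads and 0 FA0 reads in all, of which 2 passed the exact test. The stronger (chr8:128434201-128435620, 75.8 kb past the start site) held 0 reads in FA0 and 20 in FA4, at least 5-fold higher in FA4 (exact p = 1.5e-05). The region 6.7 kb before the start site (chr8:128351921-128352820) held 0 reads in FA0 and 18 in FA4, at least 4.5-fold higher in FA4 (exact p = 4.81e-05). Nrp2 had 2 FA0-higher intronic regions 3.54 kb apart, which held 12 reads in FA0 and 0 in FA4, and 20 reads in FA0 and 4 in FA4, and both passed. None of the 4 Nrp1 regions was FA0-higher, against 3 of the 24 other listed regions within 1 Mb of them (12.5%).

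**Figure D3:**
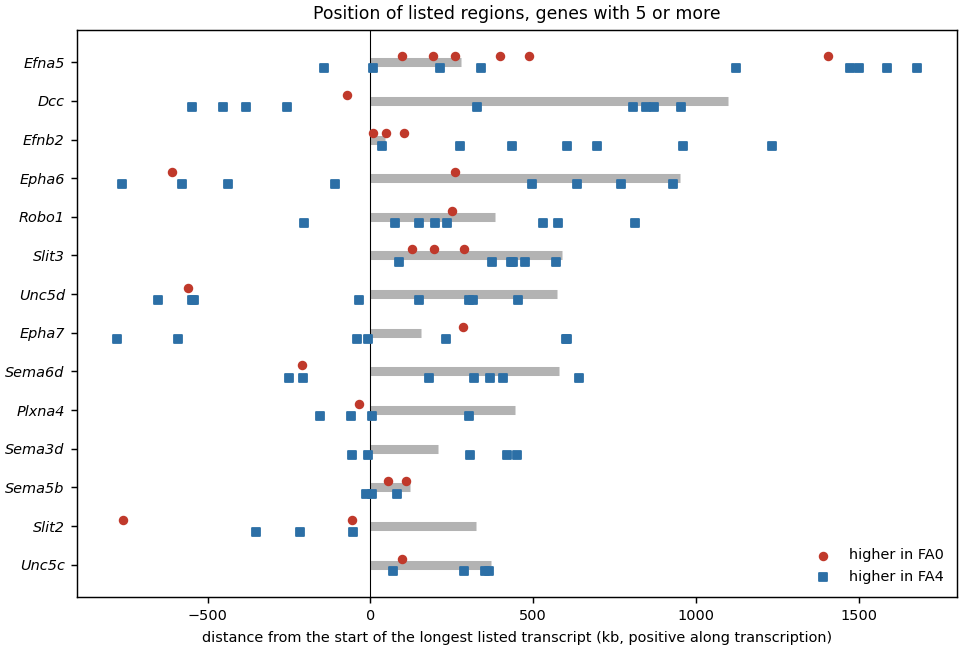
Position of listed regions along the 14 genes with 5 or more, in kb from the start of the longest listed transcript (grey bar, positive along transcription), with FA0-higher regions as circles above and FA4-higher regions as squares below. In Efnb2 the 3 FA0-higher regions sit within 104 kb of the start site while FA4-higher regions reach 1234 kb, and in Slit3 all 9 regions lie inside the gene.

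All 3 Slit genes, which encode the large secreted repellents of the midline, had listed regions, 7 FA0-higher and 9 FA4-higher, of which 5 and 1 passed the exact test. Slit3 had 3 FA0-higher and 6 FA4-higher regions, 86.6 to 569 kb past its start site and all inside its 587 kb. The strongest FA0-higher region (chr11:35317541-35318480) held 26 reads in FA0 and 4 in FA4, 8.67-fold higher in FA0 (3.01 to 34.2, exact p = 9.38e-07). A neighbour (chr11:35247041-35249100) held 42 reads in FA0 and 19 in FA4, 2.95-fold higher in FA0 (1.68 to 5.37, exact p = 4.7e-05), the lowest fold of all members. The FA0-higher regions lay 127 to 287 kb past the start site. An FA4-higher region at 86.6 kb held 0 reads in FA0 and 17 in FA4, at least 4.25-fold higher in FA4 (exact p = 8.7e-05), and a second at 431 kb (chr11:35551641-35552880) held 1 read in FA0 and 21 in FA4, 15.8-fold higher in FA4 (2.53 to 651, exact p = 0.000112, not passed). The last 5 regions of Slit3, from 373 kb onwards, were all FA4-higher, so that the directions lay in blocks along the gene.

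Slit1 had 2 FA0-higher intronic regions. The stronger (chr19:41709701-41710560) held 20 reads in FA0 and 3 in FA4, 8.89-fold higher in FA0 (2.64 to 46.7, exact p = 1.87e-05), and the weaker held 10 reads in FA0 and 0 in FA4. Slit2 had 2 FA0-higher and 3 FA4-higher regions, all before the gene, at 52.8 to 759 kb from its start site. A region 58.1 kb before the start site held 14 reads in FA0 and 1 in FA4 (18.7-fold, 2.84 to 789, exact p = 6.35e-05), and the next one, 4.58 kb further on, held 0 reads in FA0 and 13 in FA4. It was the second place among the members where regions of opposite direction lay within 10 kb of each other.

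The Robo receptors leaned to FA4, with 1 FA0-higher and 12 FA4-higher regions in 4 genes, of which 1 and 3 passed the exact test. The FA0-higher share was 7.69% (0.195 to 36), against 39% of all listed pairs. Robo1 held 9 of the 13 regions and all that passed, and regions of 1 gene are not independent counts. Robo1, which keeps axons from recrossing the midline, had 1 FA0-higher and 8 FA4-higher regions, from 203 kb before to 811 kb past its start site. Its intronic region at chr16:72897501-72898680 held 0 reads in FA0 and 24 in FA4, at least 6-fold higher in FA4 (exact p = 2.24e-06). A second FA4-higher region, 203 kb before the start site, held 0 reads in FA0 and 17 in FA4 (at least 4.25-fold, exact p = 8.7e-05). The single FA0-higher region lay in the same stretch of the gene, at chr16:72912921-72913620, with 18 reads in FA0 and 2 in FA4, 12-fold higher in FA0 (2.87 to 107, exact p = 2.97e-05). Robo2 had 2 FA4-higher regions and Robo4, the Robo of endothelium, had 1, with 2 reads in FA0 and 23 in FA4. Listed regions of non-member genes within 1 Mb of the Robo1 regions had the same FA0-higher share as Robo1, 11.1% on both sides (1 of 9). The FA4-higher Robo2 region at chr16:74130261-74131420 also lay in that stretch and was left out of this comparison.

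Of 6 netrin and netrin-G genes Ntng1 alone had listed regions, and Ntn1, Ntn3, Ntn4, Ntn5 and Ntng2 had none. Of all annotated protein-coding genes 35.7% had a listed region, and 6 genes are too few to set this family apart. Ntng1 encodes netrin-G1, a lipid-anchored protein that does not bind Dcc. Its 4 regions were FA4-higher, and the strongest (chr3:110067521-110069000, intronic) held 1 read in FA0 and 25 in FA4, 18.7-fold higher in FA4 (3.07 to 770, exact p = 1.17e-05). The other 3 held 0 reads in FA0 and 13 in FA4 each and did not pass.

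All 6 netrin receptor genes had listed regions, 5 FA0-higher and 24 FA4-higher, of which 3 and 7 passed the exact test. Dcc, the attractive netrin receptor, had 1 FA0-higher and 9 FA4-higher regions in and before its 1097 kb, from 548 kb before to 952 kb past its start site. Its FA0-higher region, 71.4 kb before the start site, held 19 reads in FA0 and 3 in FA4, 8.44-fold higher in FA0 (2.49 to 44.6, exact p = 3.73e-05). The strongest FA4-higher regions, 871 and 952 kb past the start site, each held 0 reads in FA0 and 18 in FA4, at least 4.5-fold higher in FA4 (exact p = 4.81e-05). All 5 Dcc regions inside the gene were FA4-higher with 0 FA0 reads. In Dcc 1 of 10 regions was FA0-higher (10%), against 5 of the 16 other listed regions within 1 Mb of them (31.2%). Neo1 encodes neogenin, the receptor that netrins share with Rgm proteins, and had 3 FA4-higher regions with 0 FA0 reads, one of them exonic (chr9:58914021-58914620) with 13 FA4 reads (at least 3.25-fold, exact p = 0.000994, not passed).

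The 4 Unc5 receptors, which turn netrin into a repellent, had 4 FA0-higher and 12 FA4-higher regions. Unc5a had an intronic region with 36 reads in FA0 and 15 in FA4, 3.2-fold higher in FA0 (1.71 to 6.29, exact p = 9.12e-05). Unc5b, also a receptor of vessel growth, had an intronic region (chr10:60795301-60796020) with 21 reads in FA0 and 4 in FA4, 7-fold higher in FA0 (2.36 to 28, exact p = 4.56e-05). These genes had no FA4-higher region, unlike their longer relatives. Unc5c had 1 FA0-higher and 4 FA4-higher regions, 70.4 to 365 kb past its start site, the strongest of them intronic (chr3:141535081-141536940) with 0 reads in FA0 and 21 in FA4, at least 5.25-fold higher in FA4 (exact p = 1.54e-05). An exonic Unc5c region (chr3:141829821-141831300) held 0 reads in FA0 and 13 in FA4 and did not pass, and the FA0-higher one held 10 reads in FA0 and 0 in FA4 (exact p = 0.000209, not passed).

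Unc5d had 1 FA0-higher and 8 FA4-higher regions, from 654 kb before to 454 kb past its start site. An intronic region (chr8:28902141-28904540) held 1 read in FA0 and 28 in FA4, 21-fold higher in FA4 (3.47 to 859, exact p = 3.84e-06). Another intronic region (chr8:28764701-28765800) held 0 reads in FA0 and 20 in FA4, at least 5-fold higher in FA4 (exact p = 1.5e-05). The FA0-higher region, 560 kb before the start site, held 10 reads in FA0 and 0 in FA4 and did not pass. The FA0-higher share was 11.1% in Unc5d, against 8.33% (2 of 24) of the other listed regions within 1 Mb. Chromosome 8, which also holds Efnb2 and Nrp1, carried 4 FA0-higher and 19 FA4-higher member regions, and 32.5% of all listed pairs on it were FA0-higher.

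Of the 2 Rgm genes, whose products bind neogenin, Rgma had no region and Rgmb had 4, all FA4-higher and all outside the 20.3 kb gene, with 59 FA4 reads and 0 FA0 reads. The strongest (chr17:16301321-16302740, 475 kb before the start site) held 0 reads in FA0 and 17 in FA4, at least 4.25-fold higher in FA4 (exact p = 8.7e-05). The genes that share letters with the Unc5 receptors were Unc50, whose promoter region (chr1:37431781-37432520) held 0 reads in FA0 and 15 in FA4 (at least 3.75-fold, exact p = 0.00029, not passed), and Unc5cl. Unc5cl had 2 FA0-higher regions, 126 and 157 kb from its start site, with 14 reads in FA0 and 0 in FA4, and with 20 reads in FA0 and 3 in FA4, which passed. Without both genes 52 regions were FA0-higher and 130 FA4-higher.

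Set by role, the ligand genes (semaphorins, ephrins, Slits, netrins and netrin-Gs) had 28 FA0-higher and 53 FA4-higher regions, and the receptor genes had 24 FA0-higher and 73 FA4-higher regions. The FA0-higher share was 34.6% (24.3 to 46) for ligands and 24.7% (16.5 to 34.5) for receptors, and the intervals overlap. Ligand genes had a region in 18 of 37 cases and receptor genes in 30 of 35, beside the 35.7% of all annotated protein-coding genes. The median span of the genes with a region was 150 kb for ligands and 151 kb for receptors. These medians leave out the 19 ligand and 5 receptor genes without a region, so they do not compare the lengths of the whole groups.

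The direction of the regions moved with the length of the gene. Among members of up to 50 kb 54.3% of 35 regions were FA0-higher (36.6 to 71.2), against 41% for all listed genes of that length. At 50 to 150 kb the member share was 38.1%, against 42.5%, at 150 to 400 kb it was 20.3% (11.6 to 31.7), against 35.2% (33.4 to 37), and above 400 kb it was 21.7%, against 25.1%. The median span was 27.9 kb for the 17 genes with FA0-higher regions alone, 383 kb for the genes with both and 148 kb for the genes with FA4-higher regions alone. For all listed genes these medians were 18.8, 51.8 and 21.4 kb. Members were thus longer than listed genes in general, and the interval of their share left out the share of all listed genes at 150 to 400 kb alone. Single genes departed from this, as member genes with FA0-higher regions alone reached 188 kb. Those with FA4-higher regions alone went down to 6.15 kb.

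**Figure D4:**
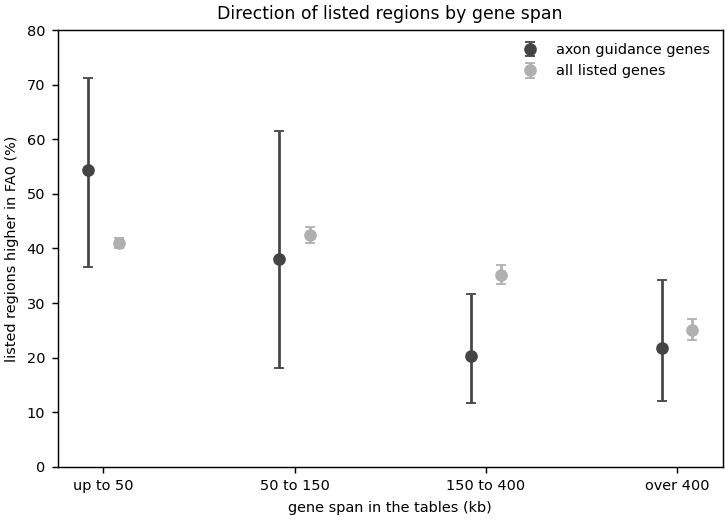
Share of listed regions that were higher in FA0 (%, vertical axis, with 95% Clopper-Pearson intervals for counting error) by gene span in kb (horizontal axis), for axon guidance genes (dark) and all listed genes (light). The member share is 54.3% up to 50 kb and 20.3% at 150 to 400 kb, where all listed genes have 41% and 35.2%.

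Distance from the start site moved with the direction in the same way. The FA0-higher member regions lay a median of 86.8 kb from the start site and the FA4-higher ones 249 kb, against 27.1 and 62.4 kb for all listed pairs. Within 10 kb 40.9% of 22 member regions were FA0-higher, against 53.2% for all listed pairs, and at 10 to 100 kb 40% of 50 were, against 41.9%. At 100 to 500 kb the share was 26.9% of 78 member regions, against 29.2%, and beyond 500 kb 11.4% of 35, against 15.9%. At each distance the interval of the member share held the share of all listed pairs. Of the members 18.9% lay beyond 500 kb, against 6.83% of all listed pairs, and 11.9% lay within 10 kb, against 19.6%. The part of gene length, distance and the naming of far regions by a gene in the tables in the lean of the members to FA4 was not tested.

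By annotation 82 member regions were intronic (44.3%, against 30% of all listed pairs) and 81 were intergenic (43.8%, against 48.9%). There were 12 upstream (6.49%, against 13.7%), 6 exonic (3.24%, against 2.12%) and 4 promoter regions (2.16%, against 5.28%). The introns had 28 FA0-higher and 54 FA4-higher regions (34.1% FA0-higher, 24 to 45.4, against 43.3% of all listed intronic pairs). The intergenic regions had 18 FA0-higher and 63 FA4-higher (22.2%, 13.7 to 32.8, against 30.8%). The upstream regions had 3 FA0-higher and 9 FA4-higher (25%, 5.49 to 57.2, against 46.9%). Each of these intervals holds the share of all listed pairs of its class. Of the 6 exonic regions 4 were FA0-higher (66.7%, 22.3 to 95.7, against 62.5% of all listed exonic pairs), in Ephb1, Ephb6, Sema4f and Sema5b. All 4 passed the exact test, while the exonic regions of Neo1 and Unc5c were FA4-higher and did not pass. The FA0-higher regions had a median length of 730 bp and the FA4-higher ones 1100 bp, against 760 and 1080 bp for all listed pairs.

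Regions of 1 gene that lay within 10 kb of each other mostly had the same direction. There were 10 such pairs, 3 with FA0-higher regions on both sides (Efna4, which gave 2 of them, and Nrp2), 5 with FA4-higher regions on both sides (Epha7, Plxnc1, Rgmb, Slit3 and Unc5d) and 2 of opposite direction (Sema6d and Slit2). The same-direction share was 80%, against 72% of 2186 such pairs over all listed genes. Of the 19 member genes with 4 or more regions, 6 had a higher FA0-higher share than the listed regions of non-member genes within 1 Mb. A lower share was found for 11 and the same share for 2. Nearby regions of other members, such as those of Sema3a beside Sema3d, were left out of this comparison. Ephb1 stood above its surroundings with 75%, against 36.8% (7 of 19), and Sema6d stood below with 12.5%, against 60% (3 of 5).

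Other genes of the axon guidance pathway, 79 adhesion proteins, adaptors and regulators of the cytoskeleton, were counted in the same way. A total of 47 had listed regions, 61 FA0-higher and 84 FA4-higher (42.1% FA0-higher, 33.9 to 50.5), against 39% of all listed pairs. The exact test was passed by 42 and 21 of them. Trio, which acts downstream of Dcc on the cytoskeleton, had 7 FA0-higher regions and 1 FA4-higher region. Its strongest intronic region held 27 reads in FA0 and 1 in FA4, 36-fold higher in FA0 (5.93 to 1474, exact p = 1.91e-09), and its promoter region held 12 reads in FA0 and 0 in FA4 (at least 5.33-fold, exact p = 3.84e-05). Vav2, a Rac exchange factor that acts behind Eph receptors, had 7 FA0-higher regions and no FA4-higher one. Cntn5, an adhesion protein with a span of 1244 kb, had 5 FA0-higher and 10 FA4-higher regions, and its strongest FA4-higher region, also the strongest of the whole list in that direction, held 1 read in FA0 and 27 in FA4, 20.25-fold higher in FA4 (3.34 to 829, exact p = 7.09e-06). The promoter region of the adaptor gene Nck1 held 7 reads in FA0 and 38 in FA4, 4.07-fold higher in FA4 (1.8 to 10.8), and did not pass the exact test. The ligand and receptor genes, at 29.2% FA0-higher (22.8 to 36.3), lay below these genes at 42.1%, with intervals that overlap.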

How the data were processed

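The authors deposited tables of regions whose hMeDIP-seq signal differed between the libraries, with separate tables for each direction and for promoter regions. Per the submitters' processing notes, reads were handled with Bowtie2 2.2.4 and cutadapt 1.9.1 on mm10, and the tool that listed the regions is not given in the sources used here. Each table holds a normalised read count per library, a signal the authors scaled with 1 factor per library, and their own fold change, p-value and FDR, which were not used. A further 8 per-sample columns of averages were not used. The labels and the methods differ in the capture kit, the extraction kit and the fragment size, and this was not settled.

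Normalised counts were divided by the step of each library (1.15 for FA0, 0.866 for FA4), and 100% of values came within 0.02 of a whole read (largest distance 0.00575). A G-test at p 0.0001 with a fold of 2 after adding 0.1 to each count was passed by 20227 of 20227 listed pairs. Each region was counted once per gene symbol, and all 1067 promoter pairs were also in the whole-genome tables. Shares have Clopper-Pearson intervals, and folds have exact conditional intervals. Library totals were not used, so depth is known for listed regions alone.

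Members and lists were chosen with earlier results of these data known. Values are given for every promoter and exon region, for the 2 regions per direction with the smallest exact p in each family, and for genes with 5 or more regions by counts, range and strongest region. Other genes named with values were chosen after their values were seen. Symbols, gene models and promoter sequences of the reference are those of RefSeq on GRCm38.p6, and Pak5 of the partner list was matched as Pak7. The calculations were tested on simulated reads with known folds. Scripts ran in Python 3.11.15 with scipy 1.17.1, pandas 2.3.3 and numpy 2.4.6, and figures were drawn with matplotlib 3.10.9.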

Additional observations from a re-analysis of the deposited data

How the results depend on the processing

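As listed, 54 member regions were FA0-higher, 131 were FA4-higher, and the FA0-higher share was 29.2%. With the exact test as the call rule 42 and 31 regions remained called and the share was 57.5% (64.6% of all listed pairs). With unscaled reads 18 and 131 regions were called and the share was 12.1% (18.4% of all listed pairs). With at least 20 reads in the higher library 19 and 24 were left, with a share of 44.2% (50.3%). Regions within the gene span numbered 33 and 58, with a share of 36.3% (46.5%). Without intergenic regions there were 36 and 68, with a share of 34.6% (46.9%). Under all the alternatives tried the member share was below that of all listed pairs, and the other alternatives gave shares of 24.3% to 31.6%. They were either library scaled up by 25%, a fold of 4 with a pseudocount of 1, merging within 1000 bp, and leaving out Efna5, Unc50 and Unc5cl, chromosome 8, or chromosomes 8 and 1. The runs without Unc50 and Unc5cl and without chromosomes were chosen after seeing the data. Settings could remove listed regions but could not add any, since unlisted regions were not used. No paired analysis was possible because each condition has 1 library, and no replicate could be left out. Read numbers limit the FA4-higher calls, since 87 of 131 rest on 13 to 16 reads against 0, as do 7786 of 12334 over all listed pairs.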
